A study of Mus musculus with 24 samples.

Results

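The genes described here are 35 known genes of naive and primed pluripotency, measured in mouse embryonic stem cells. They were taken by name, through the mouse gene annotation GENCODE M21, and all 35 were found among the 55487 gene IDs of the count tables. The set holds 4 core factors, 11 transcription factors of the naive state, 3 ligands or co-receptors, 4 other transcriptional regulators, 8 further markers, enzymes or RNA-binding proteins, and 5 genes of the formative or primed state. The 24 RNA-seq libraries came from KH2 cells, an embryonic stem cell line, in which a DUX transgene sits behind a promoter that responds to doxycycline (DOX). DUX is the transcription factor that switches on genes of the 2-cell embryo, and the series asks how cells leave that state. Each line was sequenced without DOX and after 16 h of DOX, with 2 libraries a group. The cells grew in serum with LIF, on gelatin or alternatively on feeder fibroblasts, and the labels do not say which library had which.

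The 6 lines form 2 sets. The plain set holds WT cells and cells labelled DUXBL-KO. In the pLV2 set are lines labelled TRIM24-KO pLV2 and TRIM33-KO pLV2 and a pair of wild-type lines, WT pLV2 line 1 and WT pLV2 line 2. The WT cells carry the transgene too, and no DOX-treated cells without it were used here, so an effect of DOX itself and of DUX cannot be told apart. What pLV2 stands for is not in the labels, nor whether a line is a single clone, which WT line belongs to which knockout, and whether replicates were separate cultures. The p-values therefore measure only the spread between these libraries, which may be technical. Groups follow the sample titles, since 8 libraries of the pLV2 set carry a treatment tag that contradicts their title. Dux (Duxf3 in the annotation) had 0 to 2 counts in every library titled without DOX and 20 to 110 in every library titled with DOX.

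Naive pluripotency is the state of the epiblast before implantation, which embryonic stem cells keep under LIF. The core factors OCT4 (Pou5f1), SOX2 and NANOG hold the network together, and factors such as KLF2, KLF4, ESRRB, TFCP2L1 and TBX3 mark its naive form. OTX2, FGF5, POU3F1 and ZIC2 mark the formative and primed states of the later epiblast, and cells in serum with LIF are known to hold a mixture of naive and more advanced cells.

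Counts on genes ranged from 11784696 to 19136869 per library. CT010467.1 alone held 30.4% of the counts in the library labelled TRIM24-KO with DOX replicate 2 and 12.9% in TRIM33-KO with DOX replicate 2, and at most 1.30% in any other library. Levels are given as CPM, counts scaled to 1000000 per library. Trim33 stood at 20.3 and 21.4 CPM in TRIM33-KO without DOX against 115 to 140 CPM in the WT pLV2 lines. Trim24 in the line labelled TRIM24-KO lay between its levels in the WT lines, at 137 and 123 CPM without DOX against 100.2 and 94.5 in line 1 and 196 and 165 in line 2. Duxbl1 in the cells labelled DUXBL-KO overlapped its level in WT, at 4.97 to 11.1 CPM with DOX against 3.23 to 8.34 in WT. Whether these transcripts include the deleted part is not stated, so they do not check those labels. Of 17 fibroblast genes, 3 to 6 were at 0 in each group, and their summed level was 43.6 to 86.4 CPM, highest in line 2. The 13 genes of the 2-cell-like list summed to at most 5.97 CPM in any library without DOX, and all 13 rose with DOX in every line.

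All 5 genes fixed as embryonic stem cell markers, Pou5f1, Sox2, Nanog, Zfp42 and Esrrb, were abundant in every library without DOX. Per kilobase of exon, which allows genes to be compared, the median over the 6 lines was highest for Dppa5a at 1141 CPM per kb, followed by Pou5f1 at 327, Utf1 at 243, Tdgf1 at 210.0 and Nanog at 202 CPM per kb. Zic2 at 3.55, Otx2 and Pou3f1, the last at 2.45 CPM per kb, were the lowest of the genes that could be tested. Fgf5, a ligand that marks the formative state, had at most 0.378 CPM in any library and did not pass the filter on low counts, so 34 of the 35 genes were tested in each set. Group means differed most between lines for Zic2, whose highest line was 18.4 times its lowest, Otx2 (16.6 times), Gbx2 (8.63 times), Dppa3 (5.79 times) and Klf5 (5.38 times). The smallest ratios were those of Sall1 (1.35 times) and Pou5f1 (1.39 times). The plain and pLV2 sets were scaled apart, so these ratios across sets are descriptions and carry no test.

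DOX lowered many of the pluripotency genes by a modest amount in the pLV2 lines and raised a few. With an adjusted p under 0.05, 5 rose and 9 fell in WT pLV2 line 1, where 16.3% of all genes tested passed (10% higher and 6.25% lower). In line 2, 3 rose and 20 fell, where 26.8% of all genes passed (12.7% higher and 14.0% lower). The line labelled TRIM24-KO had 3 higher and 14 lower, against 16.4% of all genes (11.5% higher and 4.94% lower). TRIM33-KO had 3 higher and 21 lower, against 36.6% (16.5% higher and 20.1% lower). The share of the pluripotency genes that fell was thus above that of all genes in each line, and the share that rose was below it in 3 of the 4. These shares are not on equal terms: the pluripotency genes had a median of 2835 counts per library and all genes tested of 146. A higher count makes a change easier to call. The median log2 fold change of the 34 genes was -0.10 in line 1, -0.30 in line 2, -0.15 in the line labelled TRIM24-KO and -0.43 in TRIM33-KO, where the median of all genes was -0.03, -0.07, 0.00 and -0.09. The changes were small for most: only 2 to 5 genes a line passed the threshold with a log2 fold change of at least 1. All genes split into 2304 higher and 2534 lower in line 2, and into 2619 and 1774 with RLE scaling, under which 3 of the pluripotency genes were higher and 18 lower. In TRIM33-KO they split into 2978 higher and 3633 lower, and into 3499 and 2676 with RLE scaling, under which 5 of the pluripotency genes were higher and 20 lower.

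A few markers of other cell types moved with DOX too. Of 8 fibroblast genes tested, Fbn1 and Thy1 rose in line 1, Col1a2 and Fbn1 in line 2, Col1a1 and Thy1 in the line labelled TRIM24-KO and Col1a1, Col1a2 and Fbn1 in TRIM33-KO, while Pdgfrb fell in line 2 and TRIM33-KO. The 17 listed summed to 56.3 and 57.1 CPM with DOX against 45.1 and 47.3 without in line 1, 78.1 and 86.4 against 73.9 and 80.6 in line 2, 57.7 and 59.0 against 43.6 and 50.2 in the line labelled TRIM24-KO and 68.6 and 70.2 against 58.5 and 64.2 in TRIM33-KO. Fap was at 0 in each of these groups. Of 6 trophoblast genes tested, Eomes fell in line 1, line 2 and TRIM33-KO and Ascl2 in the last of these and line 2, with sums of 12.2 to 27.6 CPM with DOX in those lines against 17.1 to 41.0 without. Of 7 endoderm genes tested, Gata4 fell in line 2 and Sox7 in TRIM33-KO. Of all genes, 10%, 12.7%, 11.5% and 16.5% rose in line 1, line 2, the line labelled TRIM24-KO and TRIM33-KO. In the same order 6.25%, 14.0%, 4.94% and 20.1% fell, so the endoderm counts lay near the background. The part of these other cell types in the DOX effect on the pluripotency genes was not tested.

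**Figure D1:**
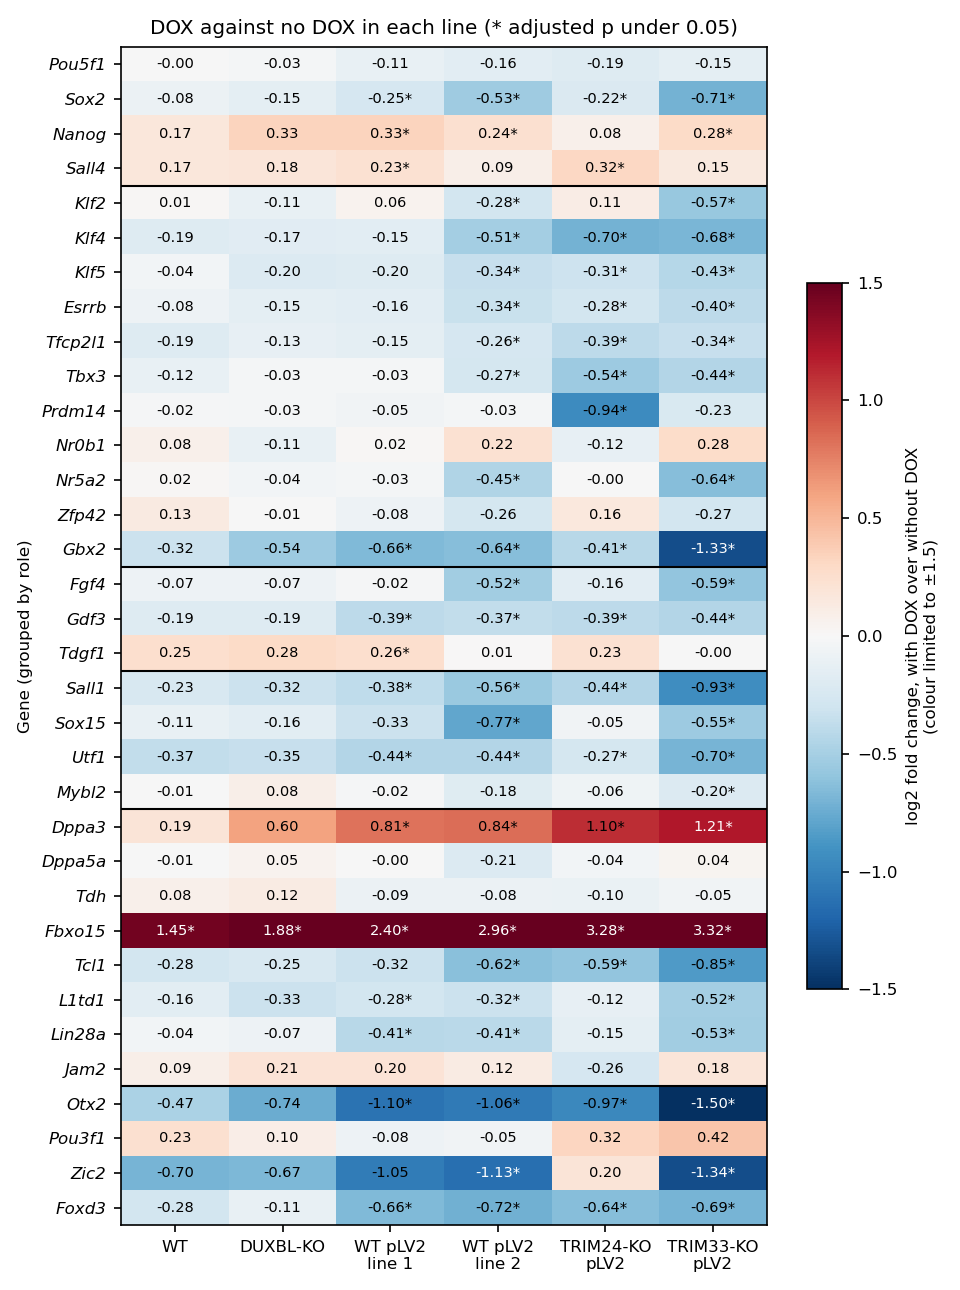
Log2 fold change with DOX over without DOX for each of the 34 genes tested (rows, grouped by role) in each of the 6 lines (columns), with an asterisk where the adjusted p was under 0.05. Fbxo15 is red in all 6 columns, and Sox2, Gbx2, Gdf3, Sall1, Utf1, Otx2 and Foxd3 are marked as lower in all 4 pLV2 columns.

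The counts depended on single libraries in places. In line 1 the 14 genes became 6 without DOX-treated replicate 2, 5 without untreated replicate 1 and 7 without untreated replicate 2. In the line labelled TRIM24-KO, the 17 became 10 without DOX-treated replicate 2, the library rich in CT010467.1. In line 2 the 23 became 14 when only that line's libraries entered the fit. With 1 library left out, the lone library of its group is assumed to vary like the others. The calls that held under each of 10 alternatives were those of Fbxo15, Otx2, Utf1 and Lin28a in line 1, of 10 genes in line 2, of 9 in the line labelled TRIM24-KO and of 17 in TRIM33-KO. Leaving out single libraries ended 10 of the 14 calls in line 1, those of Gdf3, Tdgf1, Dppa3, Sox2, Nanog, Sall4, Sall1, Gbx2, L1td1 and Foxd3. It ended 12 of the 23 in line 2 (Nanog, Tbx3, Tfcp2l1, Sox15, Tcl1, Klf2, Zic2, Gdf3, Dppa3, Foxd3, Nr5a2 and Gbx2), 8 of the 17 in the line labelled TRIM24-KO (Otx2, Tcl1, Klf5, Gdf3, Gbx2, Dppa3, Utf1 and Sox2) and 7 of the 24 in TRIM33-KO (Mybl2, Gdf3, Sox15, Zic2, Foxd3, Tfcp2l1 and Nanog).

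Without regard to a threshold, 23 of the 34 genes had the same sign with DOX in all 6 lines, against 40.0% of all genes tested in both sets. Nanog, Sall4, Dppa3 and Fbxo15 were higher in all 6, as were 18.5% of all genes, and 19 genes were lower in all 6, as were 21.5%. Past the threshold in all 4 pLV2 lines, Dppa3 and Fbxo15 rose, as did 7.31% of all genes. Sox2, Gbx2, Gdf3, Sall1, Utf1, Otx2 and Foxd3 fell in all 4, as did 2.09% of all genes. Pou5f1, Nr0b1, Zfp42, Dppa5a, Tdh, Jam2 and Pou3f1 passed in no pLV2 line, as did 56.4% of all genes, and no gene passed in opposite directions in different lines. In bulk RNA, fewer cells that express a gene and less of its RNA per cell cannot be told apart.

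Among the core factors, Sox2 fell in all 4 pLV2 lines, Nanog rose in 3, Sall4 rose in 2 and Pou5f1 passed in none. Pou5f1, the POU factor OCT4, stood at 794 and 807 CPM without DOX and 728 and 759 CPM with DOX in line 1 and at 589.8 and 595 CPM without DOX and 540.2 and 521 CPM with DOX in line 2. In the line labelled TRIM24-KO it stood at 763 and 778 CPM without DOX and 709 and 638 CPM with DOX, and in TRIM33-KO at 592 and 581 CPM without DOX and 559 and 500.1 CPM with DOX. DOX libraries lay below untreated ones in each of these lines, but the differences, from -0.19 to -0.11 on the log2 scale (SE 0.07 in each), did not pass the threshold (adjusted p from 0.0665 to 0.341).

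Sox2, the partner of OCT4, fell from 471 and 483 to 405 and 395 CPM in line 1 and from 399 and 411 to 269 and 292 CPM in line 2. It fell from 362 and 369 to 326 and 302 CPM in the line labelled TRIM24-KO and from 408 and 417 to 242 and 261 CPM in TRIM33-KO. No DOX library reached the lowest untreated library of its line. The log2 fold change was -0.25 ± 0.07, adjusted p = 0.0125 in line 1, -0.53 ± 0.07, adjusted p = 9.35e-06 in line 2, -0.22 ± 0.07, adjusted p = 0.0309 in the line labelled TRIM24-KO and -0.71 ± 0.07, adjusted p = 2.02e-07 in TRIM33-KO. The calls in line 1 and in the line labelled TRIM24-KO were each lost in 4 of 10 alternatives.

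Nanog, a homeobox factor, rose from 435 and 439 to 539.6 and 558 CPM in line 1 (0.33 ± 0.07, adjusted p = 0.00562). It rose from 545 and 489.5 to 638 and 582 CPM in line 2 (0.24 ± 0.07, adjusted p = 0.0267) and from 534 and 600.1 to 667 and 713 CPM in TRIM33-KO (0.28 ± 0.07, adjusted p = 0.00695). In the line labelled TRIM24-KO it stood at 315 and 329 CPM without DOX and 341 and 341 CPM with DOX (0.08 ± 0.08, adjusted p = 0.535). Sox2 and Nanog thus moved in opposite directions in 3 of the 4 pLV2 lines. Sall4, a zinc finger factor of the core network, rose from 538 and 536 to 604 and 653 CPM in line 1 (0.23 ± 0.07, adjusted p = 0.0292) and from 456 and 461 to 568 and 572 CPM in the line labelled TRIM24-KO (0.32 ± 0.07, adjusted p = 0.0032).

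The promoters of genes that moved in different ways are shown to let their sequence be set beside these values. RefSeq windows from 250 bases before to 50 after a start site were given for 23 of the 35 genes, and the 250 bases before the start are printed for Nanog, which rose in 3 pLV2 lines, Sox2 and Otx2, which fell in all 4, and Zfp42, which passed in none. Capitals mark ATGCAAA, part of the octamer read by POU factors such as OCT4 and called the POU letters here, or CATTGT, letters read by SOX factors, on either strand. The positions are of GRCm38.p6: chr6:122707239-122707488 (plus strand) for Nanog, chr3:34649745-34649994 (plus) for Sox2, chr8:43307010-43307259 (minus) for Zfp42 and chr14:48667645-48667894 (minus) for Otx2. Those of Nanog, Sox2 and Zfp42 lie upstream of the gene as annotated, and that of Otx2 lies inside the gene, before an internal start site and in no annotated exon.
Nanog: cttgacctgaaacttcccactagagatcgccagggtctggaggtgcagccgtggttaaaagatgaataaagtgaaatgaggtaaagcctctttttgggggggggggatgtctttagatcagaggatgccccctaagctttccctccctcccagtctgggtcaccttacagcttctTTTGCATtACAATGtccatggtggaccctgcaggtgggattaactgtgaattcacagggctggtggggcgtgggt
Sox2: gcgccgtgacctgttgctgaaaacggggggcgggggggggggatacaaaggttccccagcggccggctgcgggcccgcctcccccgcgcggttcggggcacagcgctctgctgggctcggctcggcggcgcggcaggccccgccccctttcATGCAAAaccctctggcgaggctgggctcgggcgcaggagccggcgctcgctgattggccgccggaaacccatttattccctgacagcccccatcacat
Zfp42: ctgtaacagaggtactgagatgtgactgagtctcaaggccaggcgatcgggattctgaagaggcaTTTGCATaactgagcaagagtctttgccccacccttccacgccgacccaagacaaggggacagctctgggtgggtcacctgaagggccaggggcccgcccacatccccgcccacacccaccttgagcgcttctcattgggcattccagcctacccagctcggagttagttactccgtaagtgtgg
Otx2: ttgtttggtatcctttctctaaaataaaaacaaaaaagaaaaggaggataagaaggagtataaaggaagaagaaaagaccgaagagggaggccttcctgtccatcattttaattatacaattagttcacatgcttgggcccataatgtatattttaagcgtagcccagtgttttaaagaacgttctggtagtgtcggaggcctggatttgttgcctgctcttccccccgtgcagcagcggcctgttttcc
The POU letters were found in the windows of Nanog, Sox2 and Zfp42, and in 4.63% of all 32851 windows. CATTGT was found in those of Nanog, Esrrb, Lin28a and Pou5f1, and in 12.57% of all windows. In the Nanog stretch the POU and the SOX letters lie side by side. A gene that rose, a gene that fell and a gene that passed in no line all carried the POU letters. The KLF letters GGGTGTG were in the windows of Esrrb, Fgf5, Sox15 and Zfp42 (7.95% of all windows). The ESRRB letters CAAGGTCA (1.56% of all windows) and the DUX motif (0.21%) were in none of the 23. Genes are named for letters in any of their windows and the percentages count single windows, so these are not in the same unit. A match in these letters describes the sequence and is not a binding site.

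Of the 11 naive transcription factors, none rose with DOX in any line. In line 1 only Gbx2 fell, in line 2 and in TRIM33-KO 8 fell, and in the line labelled TRIM24-KO 7 fell. Of all genes 10% to 16.5% rose in each pLV2 line, so none of 11 rising was near the background, as was 1 of 11 falling in line 1 (6.25% of all genes). In line 2, TRIM33-KO and the line labelled TRIM24-KO, 14.0%, 20.1% and 4.94% of all genes fell. Klf4, Klf5, Esrrb, Tfcp2l1 and Tbx3 fell in line 2, in the line labelled TRIM24-KO and in TRIM33-KO, and not in line 1. Whether line 1 differed from line 2 was tested directly: no naive factor passed that test. Klf2 and Nr5a2 fell in line 2 and TRIM33-KO, and Prdm14 fell in the line labelled TRIM24-KO.

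Gbx2, a homeobox factor that is a known target of LIF and STAT3, fell in all 4 pLV2 lines. Its level went from 11.9 and 11.4 to 7.61 and 7.11 CPM in line 1 (-0.66 ± 0.15, adjusted p = 0.00614) and from 15.8 and 11.6 to 9.09 and 8.65 CPM in line 2 (-0.64 ± 0.14, adjusted p = 0.00293). In TRIM33-KO it went from 17.4 and 15.5 to 6.58 and 6.50 CPM, a change of -1.33 ± 0.15, adjusted p = 3.09e-06. Starting far higher, in the line labelled TRIM24-KO, it went from 104 and 96.8 to 80.6 and 70.0 CPM (-0.41 ± 0.11, adjusted p = 0.0137). The DOX libraries were below the untreated ones in each line. The call was lost in 2 of 10 alternatives in line 1, line 2 and the line labelled TRIM24-KO each, and in line 2 the log2 fold change was -0.36 (adjusted p = 0.099) without untreated replicate 1. Gbx2 shares 43.5% of its exon bases with the antisense gene D130058E05Rik, which had at most 11.1 CPM in any library. With DOX the mean of the antisense gene went from 2.67 to 0.986 CPM in line 1 and from 3.57 to 1.99 in line 2. It went from 6.91 to 4.21 CPM in the line labelled TRIM24-KO and from 3.76 to 2.21 in TRIM33-KO. The strand setting of the counting is not given in the sources used here, so reads of both genes may not be told apart.

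Klf4, a Krüppel-like factor and reprogramming factor, fell from 231 and 214 to 153 and 160.3 CPM in line 2 (-0.51 ± 0.08, adjusted p = 1.16e-04). It fell from 129 and 154 to 82.7 and 91.6 CPM in the line labelled TRIM24-KO (-0.70 ± 0.08, adjusted p = 5.66e-06) and from 238 and 249 to 151 and 152 CPM in TRIM33-KO (-0.68 ± 0.08, adjusted p = 3.59e-06). Line 1 had 227 and 221 CPM without DOX and 207 and 195 CPM with DOX, with the DOX libraries lower but short of the threshold (-0.15 ± 0.08, adjusted p = 0.22). Klf5, a second factor of that family, fell from 1446 and 1332 to 1179.9 and 1063 CPM in the line labelled TRIM24-KO (-0.31 ± 0.07, adjusted p = 0.0059) and from 304 and 327 to 225 and 244 CPM in TRIM33-KO (-0.43 ± 0.07, adjusted p = 2.07e-04). Tbx3, a T-box factor, fell from 168 and 203 to 126 and 129 CPM in the line labelled TRIM24-KO (-0.54 ± 0.08, adjusted p = 1.20e-04). Its call in line 2 (-0.27 ± 0.08, adjusted p = 0.0215) was lost in 7 of 10 alternatives.

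Esrrb, an orphan nuclear receptor, fell by a similar fraction in 3 lines: -0.34 ± 0.06 in line 2, -0.28 ± 0.06 in the line labelled TRIM24-KO and -0.40 ± 0.06 in TRIM33-KO, with the largest adjusted p at 0.00305. Its libraries held 539 and 559.8 CPM without DOX and 409.6 and 425 CPM with DOX in TRIM33-KO and 529.8 and 518 CPM without DOX and 421 and 409 CPM with DOX in line 2. Tfcp2l1, a factor downstream of LIF, changed by -0.26 ± 0.08, -0.39 ± 0.08 and -0.34 ± 0.08 in the same lines (adjusted p 0.0261, 0.00252 and 0.00301). In line 2 the Tfcp2l1 call was lost in 5 of 10 alternatives, with -0.15 without untreated replicate 1. Without that replicate of TRIM33-KO it was -0.21 there and no longer passed.

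Klf2 showed a decrease in TRIM33-KO, from 191 and 200.3 to 124 and 141 CPM (-0.57 ± 0.08, adjusted p = 1.69e-05), and a smaller decrease in line 2, from 185 and 169.7 to 138 and 155 CPM (-0.28 ± 0.07, adjusted p = 0.0109). Line 1 had 226 and 225 CPM without DOX and 233 and 236 CPM with DOX, and the line labelled TRIM24-KO 102 and 101 CPM without DOX and 114 and 105 CPM with DOX, and neither passed. Nr5a2, the nuclear receptor LRH-1, fell from 136 and 155 to 92.4 and 93.9 CPM in TRIM33-KO (-0.64 ± 0.09, adjusted p = 3.54e-05) and from 142 and 114 to 95.0 and 92.0 CPM in line 2 (-0.45 ± 0.09, adjusted p = 0.00127). Without untreated replicate 1 of line 2, the Nr5a2 change there was -0.26 and did not pass (adjusted p = 0.0506). Prdm14, a repressor of FGF signalling and of DNA methylation, was at 10.6 and 14.0 CPM in the line labelled TRIM24-KO and fell to 5.80 and 7.24 CPM (-0.94 ± 0.16, adjusted p = 3.51e-04). In the other pLV2 lines its libraries lay between 20.5 and 28.6 CPM whether or not DOX was given.

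Zfp42, the zinc finger protein REX1 and a classical naive marker, did not pass in any line. It stood at 186 and 182 CPM without DOX and 182 and 166 CPM with DOX in line 1 and at 375 and 260.4 CPM without DOX and 289.6 and 242 CPM with DOX in line 2. In the line labelled TRIM24-KO it stood at 239.8 and 228 CPM without DOX and 262 and 262 CPM with DOX, and in TRIM33-KO at 379 and 361 CPM without DOX and 301 and 312 CPM with DOX. The sign differed between lines, with 0.16 ± 0.12 in the line labelled TRIM24-KO and -0.27 ± 0.12 in TRIM33-KO (adjusted p = 0.42 and 0.0853). Nr0b1, the orphan receptor DAX1, changed by between -0.12 and 0.28 on the log2 scale and passed in no line.

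Of the secreted factors and co-receptors, Gdf3 fell in all 4 pLV2 lines and Fgf4 in 2 of them. Gdf3, a ligand of the TGF-beta family, went from 53.4 and 59.1 to 40.9 and 44.7 CPM in line 1 (-0.39 ± 0.10, adjusted p = 0.0151) and from 74.5 and 84.6 to 53.9 and 64.1 CPM in TRIM33-KO (-0.44 ± 0.10, adjusted p = 0.00287). Its change was -0.37 ± 0.10 in line 2 and -0.39 ± 0.11 in the line labelled TRIM24-KO (adjusted p = 0.0109 and 0.0215). The Gdf3 calls were lost in 3 of 10 alternatives in line 1, 3 in line 2, 2 in the line labelled TRIM24-KO and 2 in TRIM33-KO. Fgf4, the ligand whose ERK signalling prompts cells to leave the naive state, fell from 145 and 167 to 99.0 and 118 CPM in line 2 (-0.52 ± 0.08, adjusted p = 1.53e-04) and from 139.6 and 131 to 89.3 and 91.0 CPM in TRIM33-KO (-0.59 ± 0.08, adjusted p = 4.12e-05). Line 1 had 244 and 250.1 CPM without DOX and 246 and 239.9 CPM with DOX, with no call. Tdgf1, the Nodal co-receptor CRIPTO, rose in line 1 from 725 and 763 to 867 and 909 CPM (0.26 ± 0.08, adjusted p = 0.0439), a call lost in 4 of 10 alternatives.

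Sall1 and Utf1, from the group of other transcriptional regulators, fell in all 4 pLV2 lines. Utf1, a chromatin-bound protein of undifferentiated cells, went from 331 and 320.2 to 237 and 242 CPM in line 1 (-0.44 ± 0.06, adjusted p = 3.48e-05), from 226 and 220.5 to 160.0 and 168 CPM in line 2 (-0.44 ± 0.06, adjusted p = 2.32e-05) and from 255 and 258 to 157 and 159.9 CPM in TRIM33-KO (-0.70 ± 0.06, adjusted p = 7.51e-08). In the line labelled TRIM24-KO it changed by -0.27 ± 0.06, adjusted p = 0.00441. The Utf1 groups did not overlap in any of these lines. Sall1, a zinc finger factor, fell most in TRIM33-KO, from 217 and 253 to 117 and 130.2 CPM (-0.93 ± 0.09, adjusted p = 6.55e-07), and by -0.38 ± 0.09, -0.56 ± 0.09 and -0.44 ± 0.09 in line 1, line 2 and the line labelled TRIM24-KO (largest adjusted p = 0.00869). Sox15, a SOX factor, fell from 13.2 and 18.2 to 7.71 and 10.5 CPM in line 2 (-0.77 ± 0.17, adjusted p = 0.00254) and from 16.7 and 17.8 to 12.1 and 11.5 CPM in TRIM33-KO (-0.55 ± 0.17, adjusted p = 0.0168). Each Sox15 call was lost in 3 of 10 alternatives, and in line 2 the change was -0.50 without untreated replicate 2. Mybl2, a cell cycle factor, passed only in TRIM33-KO (-0.20 ± 0.07, adjusted p = 0.0253), a call lost in 7 of 10 alternatives.

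Fbxo15 had the largest change of the set and was the only gene of it to pass in all 6 lines. It encodes an F-box protein and is a known target of OCT4 and SOX2. In line 1 it rose from 92.1 and 92.7 to 453 and 524 CPM, 5.29-fold (log2 2.40 ± 0.09, adjusted p = 5.90e-12), and in line 2 from 39.8 and 40.0 to 308 and 312 CPM, 7.77-fold (2.96 ± 0.09, adjusted p = 2.96e-13). In the line labelled TRIM24-KO it rose from 28.9 and 35.2 to 292 and 333 CPM, 9.74-fold (3.28 ± 0.10, adjusted p = 3.42e-13), and in TRIM33-KO from 56.8 and 56.9 to 576 and 556 CPM, 9.96-fold (3.32 ± 0.09, adjusted p = 5.00e-14). DOX libraries were several times the untreated ones in each of these lines, with no overlap.

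Dppa3, the maternal factor STELLA, rose in the 4 pLV2 lines from a low level. Line 1 went from 7.07 and 6.56 to 10.5 and 13.4 CPM (0.81 ± 0.27, adjusted p = 0.0483) and line 2 from 11.3 and 21.6 to 26.0 and 32.0 CPM (0.84 ± 0.22, adjusted p = 0.00903). The line labelled TRIM24-KO went from 4.45 and 5.92 to 9.77 and 13.0 CPM (1.10 ± 0.29, adjusted p = 0.0129) and TRIM33-KO from 16.6 and 20.1 to 44.3 and 40.4 CPM (1.21 ± 0.21, adjusted p = 2.92e-04). The call was lost in 5 of 10 alternatives in line 1, 3 in line 2, 2 in the line labelled TRIM24-KO and none in TRIM33-KO. In line 2 the log2 fold change was 0.45 without the untreated replicate 1 and 1.39 without the untreated replicate 2. Libraries with and without DOX did not overlap within a line.

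**Figure D2:**
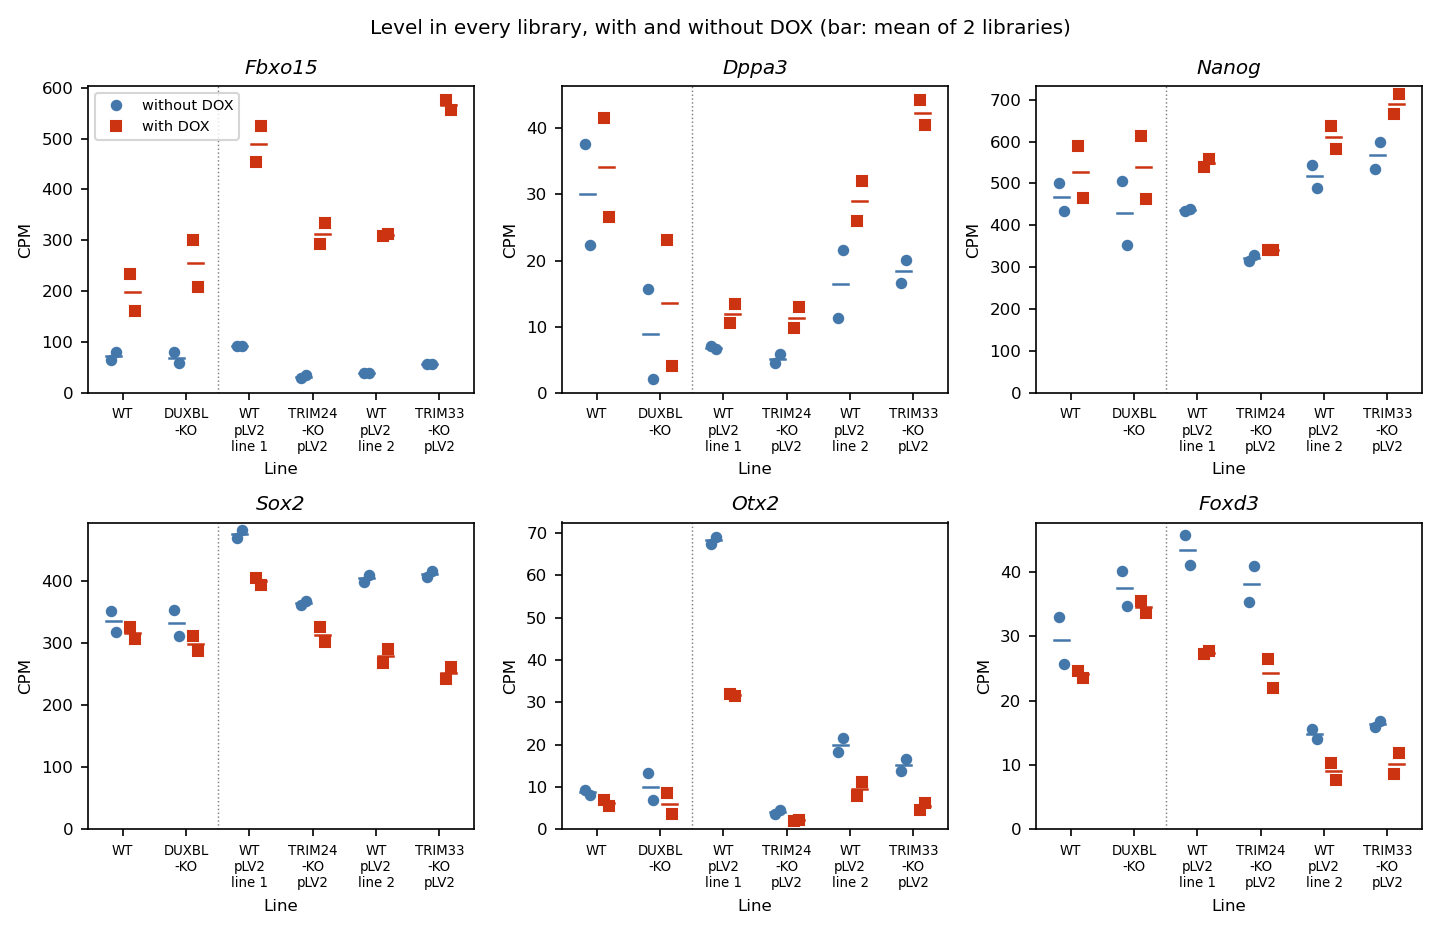
CPM of 6 genes in every library (points) and the mean of the 2 libraries of a group (bars), by line, without DOX (circles) and with DOX (squares); the dotted line parts the plain set from the pLV2 set, which were scaled apart. Fbxo15 rises from at most 92.7 CPM without DOX to at least 292 CPM with DOX in the pLV2 lines, while Sox2, Otx2 and Foxd3 fall in each of them.

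Tcl1, L1td1 and Lin28a, from the same group of markers and RNA-binding proteins, fell in 3 of the 4 pLV2 lines. Tcl1, a coactivator of the kinase AKT, fell from 46.3 and 38.6 to 23.5 and 23.6 CPM in TRIM33-KO (-0.85 ± 0.15, adjusted p = 2.82e-04), from 46.9 and 57.4 to 30.9 and 36.6 CPM in line 2 (-0.62 ± 0.14, adjusted p = 0.00317) and from 25.3 and 33.9 to 18.3 and 21.5 CPM in the line labelled TRIM24-KO (-0.59 ± 0.16, adjusted p = 0.0164), where the change was -0.39 without untreated replicate 2 (adjusted p = 0.171). Lin28a, the RNA-binding protein that blocks let-7 maturation, fell from 293 and 279 to 220.2 and 209 CPM in line 1 (-0.41 ± 0.07, adjusted p = 2.23e-04), and by -0.41 ± 0.07 in line 2 and -0.53 ± 0.07 in TRIM33-KO. L1td1, an RNA-binding protein, changed by -0.28 ± 0.07, -0.32 ± 0.06 and -0.52 ± 0.07 in these lines. Dppa5a, Tdh (threonine dehydrogenase) and Jam2 (a junctional adhesion molecule) passed in no line, with log2 fold changes between -0.26 and 0.20 over the pLV2 lines.

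Of the 4 formative or primed genes that could be tested, Otx2 and Foxd3 fell in all 4 pLV2 lines, Zic2 fell in 2, and Pou3f1 in none. Otx2, the homeobox factor that drives cells toward the formative state, fell in line 1 from 67.4 and 69.1 to 32.0 and 31.6 CPM (-1.10 ± 0.13, adjusted p = 1.20e-05) and in line 2 from 18.3 and 21.6 to 7.79 and 11.3 CPM (-1.06 ± 0.16, adjusted p = 8.93e-05). It fell from 3.60 and 4.64 to 2.07 and 2.16 CPM in the line labelled TRIM24-KO (-0.97 ± 0.28, adjusted p = 0.0225) and from 13.8 and 16.6 to 4.62 and 6.29 CPM in TRIM33-KO (-1.50 ± 0.19, adjusted p = 8.03e-06). The groups did not overlap, and the call in the line labelled TRIM24-KO, where Otx2 was scarce, was lost in 4 of 10 alternatives.

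Foxd3, a forkhead factor needed by the epiblast, fell from 45.8 and 41.1 to 27.2 and 27.7 CPM in line 1 (-0.66 ± 0.13, adjusted p = 0.0022) and from 15.6 and 14.0 to 10.4 and 7.68 CPM in line 2 (-0.72 ± 0.16, adjusted p = 0.00317). The fall was -0.64 ± 0.14 in the line labelled TRIM24-KO, from 35.3 and 40.8 to 26.5 and 22.0 CPM, and -0.69 ± 0.16 in TRIM33-KO, from 15.9 and 16.8 to 8.53 and 11.8 CPM (adjusted p = 0.00362 and 0.00305). Zic2, a zinc finger factor, fell from 9.21 and 17.4 to 4.20 and 7.83 CPM in line 2 (-1.13 ± 0.34, adjusted p = 0.0198) and from 13.4 and 19.2 to 5.16 and 7.91 CPM in TRIM33-KO (-1.34 ± 0.34, adjusted p = 0.00553). The Zic2 calls were lost in 4 of 10 alternatives in line 2 and in 3 in TRIM33-KO. In line 2 the log2 fold change was -0.58 without the untreated replicate 2, -0.75 without the DOX replicate 1, -1.50 without the untreated replicate 1 and -1.65 without the DOX replicate 2. Pou3f1, the POU factor OCT6, stayed between 6.63 and 18.6 CPM in the pLV2 libraries. Genes of the naive state and genes of the formative or primed state were thus among those that fell in the same lines.

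In the plain set the same DOX treatment left few calls. Counts here are without a term for the replicate number, with which 2 genes passed in WT and 3 in the cells labelled DUXBL-KO. The shares of all genes with that term are not given here. Fbxo15 was the only gene of the set to pass in WT, where 2.93% of all genes did (2.82% higher and 0.105% lower), and in the cells labelled DUXBL-KO, where 4.91% did (4.5% higher and 0.404% lower). It rose in WT from 64.2 and 80.0 to 234 and 161 CPM, 2.74-fold (1.45 ± 0.26, adjusted p = 0.0333), and in the cells labelled DUXBL-KO from 79.8 and 58.6 to 301 and 209 CPM, 3.69-fold (1.88 ± 0.26, adjusted p = 0.00743). The groups did not overlap. The WT call was lost without DOX-treated replicate 1 (adjusted p = 0.146), without untreated replicate 1 (0.247) or 2 (0.144), and when only WT entered the fit (0.0595). The call in the cells labelled DUXBL-KO was lost without untreated replicate 2 (adjusted p = 0.0533).

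The spread between replicates was wider in the plain set, with a biological coefficient of variation of 17.8% against 8.55% in the pLV2 set. Same-numbered libraries of different plain groups had correlated deviations (r from 0.255 to 0.549), though nothing in the labels pairs them. Overlap between groups is read here without pairing. In WT, Pou5f1 stood at 696 and 698 CPM without DOX and 680.4 and 713 CPM with DOX, Sox2 at 353 and 318 CPM without DOX and 326 and 308 CPM with DOX and Nanog at 502 and 434 CPM without DOX and 590.2 and 466 CPM with DOX, and the groups overlapped for all 3. In the cells labelled DUXBL-KO, Pou5f1 stood at 799 and 833 CPM without DOX and 794 and 810.2 CPM with DOX, Sox2 at 353 and 312 CPM without DOX and 312 and 288 CPM with DOX and Nanog at 505 and 352 CPM without DOX and 613 and 464 CPM with DOX. Otx2 stood at 9.39 and 8.20 CPM without DOX and 7.02 and 5.63 CPM with DOX in WT (-0.47 ± 0.44, adjusted p = 0.839), with no overlap, and at 13.4 and 6.89 CPM without DOX and 8.54 and 3.66 CPM with DOX in the cells labelled DUXBL-KO (-0.74 ± 0.44, adjusted p = 0.541). Zfp42 stood at 276 and 355 CPM without DOX and 298 and 396 CPM with DOX in WT and at 292 and 349 CPM without DOX and 275 and 362 CPM with DOX in the cells labelled DUXBL-KO. Utf1 changed by -0.37 ± 0.11 and -0.35 ± 0.11, and Dppa3 by 0.19 ± 0.92 and 0.60 ± 0.97. None of these passed the threshold. Taken by replicate number, Nanog was higher and Sox2 lower with DOX in each case, while Pou5f1 went both ways in WT. The median log2 fold change of the 34 genes was -0.04 in WT and -0.09 in the cells labelled DUXBL-KO, where the median of all genes was -0.01 in both.

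The size of the DOX effect was compared between lines with interaction tests. Dux with DOX had a mean of 1.24 CPM in WT and 3.88 in the cells labelled DUXBL-KO. In the pLV2 set it was 7.78 in line 1, 4.19 in line 2, 3.10 in the line labelled TRIM24-KO and 6.39 in TRIM33-KO. The part of the Dux level in differences between lines was not tested. No gene of the set differed between the cells labelled DUXBL-KO and WT, where 0.0% of all genes passed in edgeR's quasi-likelihood test, and none had an unadjusted p under 0.05, which 0.543% of all genes had. DESeq2 gave 0 too, against 0.00554% of all genes with an adjusted p. Between WT pLV2 line 2 and line 1, 0 passed, against 0.238% of all genes (0.183% higher and 0.0553% lower), 7 had an unadjusted p under 0.05, as did 7.76% of all genes, and DESeq2 called 2 and 0.686% of all genes with an adjusted p. Against the mean of both WT pLV2 lines, Fbxo15 rose by more in the line labelled TRIM24-KO (difference 0.60 ± 0.11, adjusted p = 0.0237), where 0.437% of all genes passed (0.354% higher and 0.083% lower). Fbxo15 started there from the lowest untreated mean of all lines, 32.1 CPM against 92.4 in line 1. Its DOX libraries there lay below those of line 1. Prdm14 fell by more in the line labelled TRIM24-KO (-0.90 ± 0.18, adjusted p = 0.039). In TRIM33-KO, where 0.575% of all genes passed (0.498% higher and 0.0774% lower), Fbxo15 rose by more (0.64 ± 0.11, adjusted p = 0.00947) and Klf2 fell by more (-0.46 ± 0.09, adjusted p = 0.0311). Each of these 4 calls was lost when single libraries were left out, with adjusted p up to 0.194 for Fbxo15 and 0.232 for Prdm14 in the line labelled TRIM24-KO, and up to 0.0801 for Fbxo15 and 0.292 for Klf2 in TRIM33-KO. With RLE scaling the interaction calls over all genes in the line labelled TRIM24-KO went from 64 higher and 15 lower to 29 and 16, and the Fbxo15 difference there had an adjusted p of 0.0535.

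These differences depended on which WT line served as reference, and that of Prdm14 passed against neither line alone. Against line 1 alone, Fbxo15 differed by 0.88 ± 0.13, adjusted p = 0.00629 in the line labelled TRIM24-KO, where 0.199% of all genes passed (0.188% higher and 0.0111% lower), and by 0.91 ± 0.12, adjusted p = 6.84e-04 in TRIM33-KO. Against line 2 alone the differences were 0.33 ± 0.13, adjusted p = 0.383 and 0.36 ± 0.13, adjusted p = 0.988, and no gene of the set passed for either knockout, where 0.36% and 0.0% of all genes did. An unadjusted p under 0.05 was reached there by 14 genes of the set and by 5, and by 9.8% and 4.6% of all genes. Measured against line 1 alone, TRIM33-KO showed larger decreases of Sox2 (-0.46 ± 0.09), Klf2 (-0.62 ± 0.11), Klf4 (-0.53 ± 0.11), Nr5a2 (-0.62 ± 0.13), Fgf4 (-0.56 ± 0.12) and Sall1 (-0.55 ± 0.13), with adjusted p from 0.00478 to 0.0457, where 1.62% of all genes passed (1.08% higher and 0.531% lower). The 2-cell-like genes summed to 7566 and 8207 CPM in TRIM33-KO with DOX, 4191 and 5705 in line 2, 1761 and 2714 in the line labelled TRIM24-KO and 1567 and 1906 in line 1. The part of that sum in these differences was not tested.

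Further genes of both states, from lists chosen with earlier results of these data known, were counted with DOX. Of 18 other naive genes, 2 rose in each pLV2 line, Dppa2 among them, and 6, 13, 5 and 12 fell in line 1, line 2, the line labelled TRIM24-KO and TRIM33-KO. Of all genes, 10%, 12.7%, 11.5% and 16.5% rose and 6.25%, 14.0%, 4.94% and 20.1% fell in the same order, so 2 of 18 rising was near the background in each line. Dppa2, a chromatin protein that primes 2-cell genes, rose by 0.94 ± 0.08, 1.15 ± 0.08, 1.68 ± 0.08 and 1.44 ± 0.08 in that order. Tet2, a 5-methylcytosine dioxygenase, fell in each, by -0.34 ± 0.10, -0.72 ± 0.10, -0.69 ± 0.10 and -0.91 ± 0.10. Mycn fell in line 1, line 2 and TRIM33-KO, there by -0.84 ± 0.08. Of 15 other formative or primed genes tested, 1, 1, 2 and 2 rose and 3, 6, 0 and 7 fell in that order, and the counts that rose were again near the background. Sox3, a SOX factor of the early neural plate, rose by 1.91 ± 0.22, 1.95 ± 0.22 and 2.42 ± 0.29 in line 1, line 2 and the line labelled TRIM24-KO, rose in TRIM33-KO too (adjusted p = 5.22e-07), and in WT of the plain set by 1.75 ± 0.33. Lef1, a nuclear partner of beta-catenin, fell by -2.99 ± 0.27 in TRIM33-KO, -2.27 ± 0.29 in line 2 and -0.91 ± 0.20 in line 1.

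Without DOX, the pluripotency genes already differed between the pLV2 lines, the 2 WT lines included. Line 2 differed from line 1 in 26 of the 34 genes, 8 higher and 18 lower, where 38.3% of all genes passed (18.9% higher and 19.3% lower). Largest were the differences of Otx2, at 67.4 and 69.1 CPM in line 1 and 18.3 and 21.6 in line 2 (-1.78 ± 0.14, adjusted p = 6.81e-08), and Foxd3, at 45.8 and 41.1 CPM in line 1 and 15.6 and 14.0 in line 2 (-1.55 ± 0.14, adjusted p = 3.25e-07). Jam2 stood at 172 and 174 CPM in line 1 and 55.2 and 66.0 in line 2 (-1.52 ± 0.10, adjusted p = 1.82e-08). Dppa5a, an RNA-binding protein, stood at 908 and 968 CPM in line 1 and 343 and 478 in line 2 (-1.19 ± 0.14, adjusted p = 6.99e-06). Fbxo15, at 92.1 and 92.7 CPM in line 1, was lower in line 2 at 39.8 and 40.0 CPM (-1.21 ± 0.09, adjusted p = 5.60e-08). These genes were higher in line 1 in both libraries. Fibroblast markers differed as well: of 8 tested, Col1a1, Col1a2, Fbn1, Mmp2 and Thy1 were higher in line 2 and none lower (median log2 difference 1.00). The 17 listed summed to 73.9 and 80.6 CPM in line 2 and to 45.1 and 47.3 CPM in line 1, with Postn, Dcn, Lum, Prrx1 and Fap at 0 in both. Of 6 trophoblast genes tested, Eomes and Plet1 were lower in line 2, and the 7 listed summed to 17.8 and 20.4 CPM there against 34.7 and 41.0 in line 1, with Cdx2 at 0 in both. Of 7 endoderm genes tested, Dab2 was higher and Sox7 lower, and the 8 listed summed to 6.01 and 8.63 CPM in line 2 and 7.27 and 7.72 in line 1, with Foxa2 at 0 in both. The part of these cell types in the differences was not tested.

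Higher in line 2 were Dppa3, at 7.07 and 6.56 CPM in line 1 and 11.3 and 21.6 in line 2 (1.25 ± 0.25, adjusted p = 8.16e-04), and Nr5a2, at 69.9 and 73.2 CPM in line 1 and 142 and 114 in line 2 (0.84 ± 0.09, adjusted p = 2.66e-06). Zfp42 stood at 186 and 182 CPM in line 1 and 375 and 260.4 in line 2 (0.79 ± 0.12, adjusted p = 7.20e-05). The lowest library of line 2 exceeded the highest of line 1 for each of these. The Dppa3 difference was 0.76 without untreated replicate 2 of line 2. Tfcp2l1, at 795 and 827 CPM in line 1 and 1195 and 1069 in line 2 (0.48 ± 0.08, adjusted p = 1.72e-04), and Gdf3, at 53.4 and 59.1 and then 83.0 and 75.1 CPM (0.49 ± 0.10, adjusted p = 8.53e-04), were higher there too. Zic2 was higher in line 2 (1.08 ± 0.33, adjusted p = 0.0153), with 9.21 and 17.4 CPM against 6.04 and 6.37, a call lost in 4 of 10 alternatives, with 0.60 without untreated replicate 2 of line 2. Among the core factors, Pou5f1 (-0.43 ± 0.07), Sox2 (-0.24 ± 0.07) and Sall4 (-0.69 ± 0.07) were lower and Nanog higher (0.24 ± 0.07, adjusted p = 0.0164) in line 2. Of the naive factors, Klf2 (-0.34 ± 0.07), Klf5 (-0.73 ± 0.07) and Nr0b1 (-0.68 ± 0.13) were lower, and Tbx3, at 387 and 377 CPM in line 1, stood at 222 and 209 in line 2 (-0.82 ± 0.08). The Nr0b1 difference was -0.40 without untreated replicate 1 of line 2. Leaving out single libraries ended the calls of Nanog, Tcl1, Zic2, Sox2 and Sox15. Naive genes thus stood on both sides of the comparison.

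**Figure D3:**
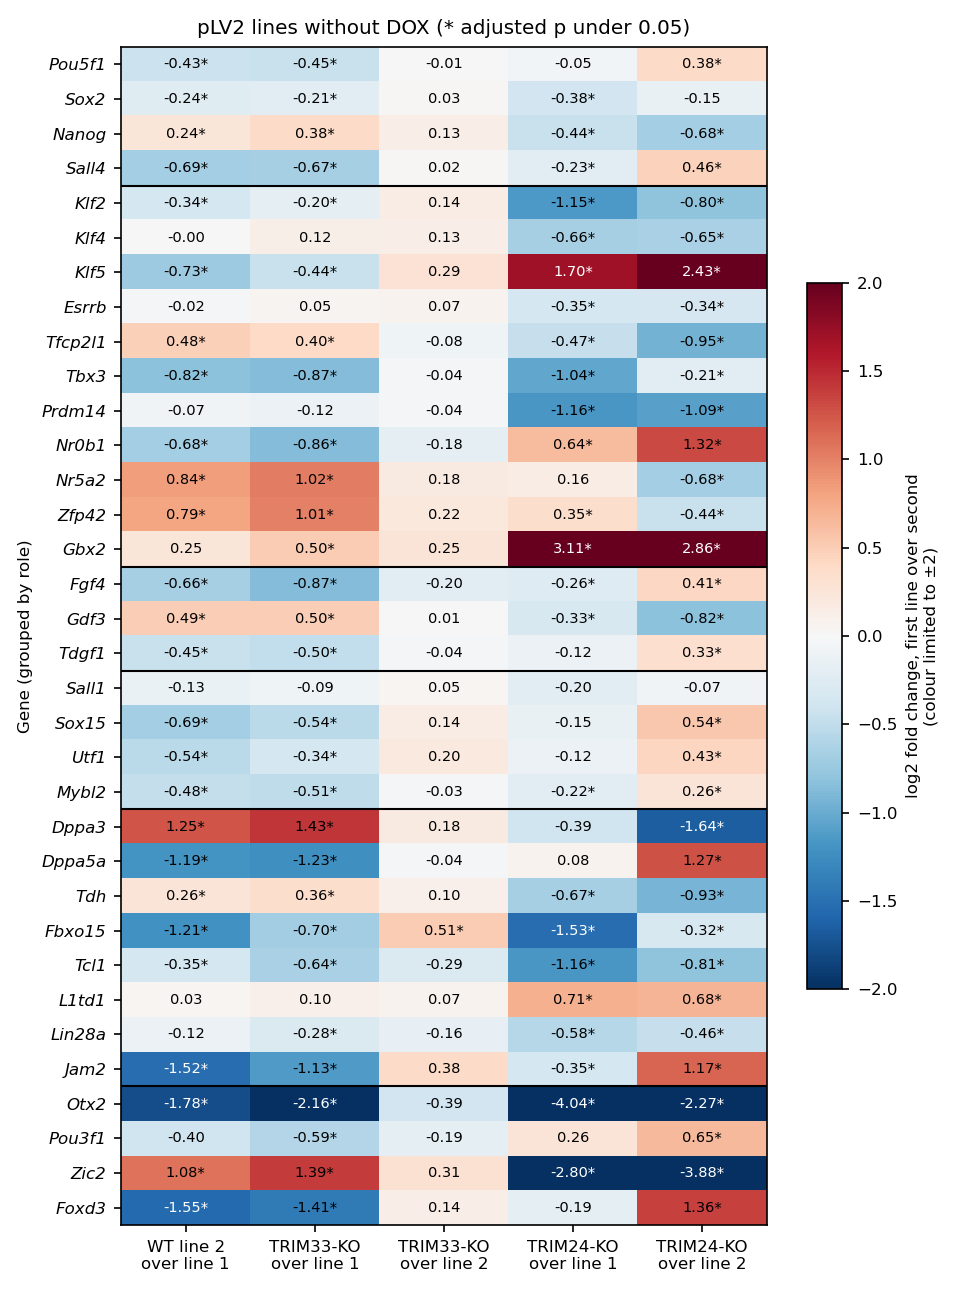
Log2 fold change without DOX between pLV2 lines for the 34 genes tested (rows, grouped by role), with an asterisk where the adjusted p was under 0.05. TRIM33-KO against line 2 has 1 asterisk, that of Fbxo15, and Gbx2 and Klf5 are red in both columns of the line labelled TRIM24-KO; columns that share a line share its libraries.

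TRIM33-KO differed from WT pLV2 line 1 in most of the genes and from line 2 in 1. Against line 1, 9 of the 34 genes were higher and 20 lower, where 40.9% of all genes passed (20.2% higher and 20.6% lower). The same 5 fibroblast genes were higher than in line 1 and none lower (median log2 difference 0.89), and the list summed to 58.5 and 64.2 CPM with Postn, Dcn, Lum and Fap at 0, while against line 2 none of the 8 passed. Trophoblast Eomes, Krt7 and Plet1 were lower than in line 1, with a list sum of 17.1 and 18.5 CPM and Cdx2 at 0. Endoderm Gata6 and Sox7 were lower and Dab2 higher than in line 1, with a sum of 6.11 and 6.15 CPM and Foxa2 at 0. No gene of these 3 lists passed against line 2, and their part in the difference from line 1 was not tested. Against line 2, Fbxo15 alone passed, at 56.8 and 56.9 CPM against 39.8 and 40.0 (0.51 ± 0.09, adjusted p = 0.00547), where 1.52% of all genes passed (1.13% higher and 0.387% lower). The other differences from line 2 lay between -0.39 and 0.38 on the log2 scale and had SEs such as 0.07 for Pou5f1 (-0.01) and 0.12 for Zfp42 (0.22), and 8 of the 34 genes had an unadjusted p under 0.05, as did 11.5% of all genes. No gene passed with the same sign against both WT lines, where 0.918% of all genes did (0.653% higher and 0.266% lower). Fbxo15 was lower than in line 1 (-0.70 ± 0.09, adjusted p = 1.10e-05).

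Against the mean of both WT pLV2 lines, 8 genes were higher and 13 lower in TRIM33-KO, where 23.9% of all genes passed (12.8% higher and 11.1% lower), and 21 became 12 without untreated TRIM33-KO replicate 2. Leaving out single libraries ended the calls of Mybl2, Pou5f1, Tdgf1, Gbx2, Jam2, Nanog, Nr0b1, Gdf3, Tcl1, Dppa3, Lin28a, Dppa5a and Zic2. Otx2, at 13.8 and 16.6 CPM, was below every library of both WT lines (-1.27 ± 0.13, adjusted p = 3.33e-06), and it did not pass against line 2 alone (-0.39 ± 0.14, adjusted p = 0.28). Fgf4, at 139.6 and 131 CPM, was lower too (-0.54 ± 0.07, adjusted p = 6.79e-05), as were Nr0b1 at 42.7 and 42.5 CPM (-0.52 ± 0.11, adjusted p = 0.00319) and Tcl1 at 46.3 and 38.6 CPM (-0.47 ± 0.12, adjusted p = 0.00803). Zfp42 stood at 379 and 361 CPM (0.61 ± 0.10, adjusted p = 3.83e-04), Nr5a2 at 136 and 155 CPM (0.60 ± 0.08, adjusted p = 3.66e-05) and Dppa3 at 16.6 and 20.1 CPM (0.80 ± 0.20, adjusted p = 0.00667), all higher than the mean. Lower were Dppa5a at 443 and 355 CPM (-0.64 ± 0.13, adjusted p = 0.00158) and Foxd3 at 15.9 and 16.8 CPM (-0.64 ± 0.12, adjusted p = 0.00126), though Foxd3 stood at 0.14 ± 0.14 against line 2 alone. Zic2, at 13.4 and 19.2 CPM, was higher than the mean (0.85 ± 0.26, adjusted p = 0.0243), a call lost in 5 of 12 alternatives. An effect of the Trim33 knockout and a difference between lines cannot be told apart in these libraries.

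The line labelled TRIM24-KO stood apart from both WT pLV2 lines. It differed from line 1 in 24 of the 34 genes, 5 higher and 19 lower, where 34.0% of all genes passed (16.5% higher and 17.5% lower). From line 2 it differed in 32, 15 higher and 17 lower, where 48.1% passed (22.8% higher and 25.3% lower). Against their mean it had 10 higher and 17 lower, where 43.4% passed (20.9% higher and 22.5% lower). With the same sign against each WT line, 4 were higher and 14 lower, 18 in all, against 21.7% of all genes (11.1% higher and 10.6% lower). Fgf4, Jam2, Mybl2, Sall4 and Zfp42 passed with opposite signs against the 2 lines.

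Higher than in both WT lines were Gbx2, Klf5, Nr0b1 and L1td1. Klf5 stood at 1446 and 1332 CPM against 424 and 433 in line 1 (1.70 ± 0.07, adjusted p = 6.06e-11) and 267 and 249.5 in line 2 (2.43 ± 0.08, adjusted p = 9.86e-13), 4.18-fold the mean of both. Gbx2 stood at 104 and 96.8 CPM against 11.9 and 11.4 in line 1 (3.11 ± 0.12, adjusted p = 3.43e-11) and 15.8 and 11.6 in line 2 (2.86 ± 0.12, adjusted p = 2.66e-11), 7.92-fold the mean. Its antisense partner D130058E05Rik was higher as well, at 6.61 and 7.21 CPM against 2.32 to 3.83 in the WT lines. Nr0b1 stood at 129.6 and 112 CPM against 77.0 and 78.0 in line 1 (0.64 ± 0.12) and 39.5 and 57.4 in line 2 (1.32 ± 0.13). L1td1 stood at 611 and 598 CPM against 371 and 368 in line 1 (0.71 ± 0.06) and 398 and 358 in line 2 (0.68 ± 0.06). No WT library of the pLV2 set reached these levels for any of the 4 genes. Foxd3, at 35.3 and 40.8 CPM, and Dppa5a, at 999.5 and 980.0 CPM, were higher than the mean of both WT lines (0.59 ± 0.11, adjusted p = 4.89e-04 and 0.67 ± 0.12, adjusted p = 2.32e-04), where line 2 was the lower of the WT lines for each.

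**Figure D4:**
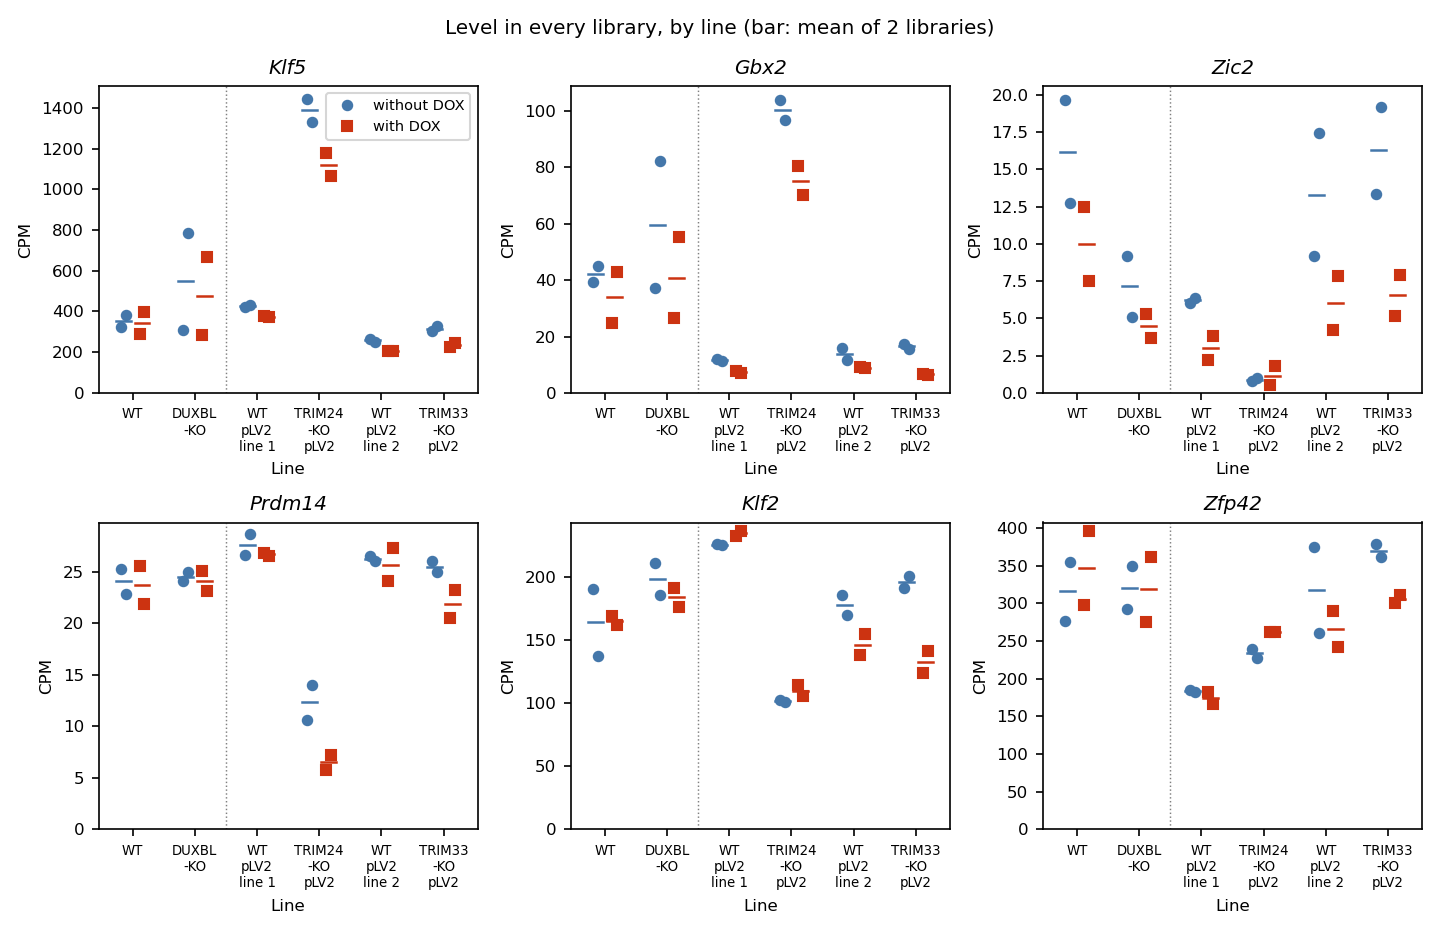
CPM of 6 genes in every library (points) with group means (bars), by line, without DOX (circles) and with DOX (squares); the dotted line parts the plain set from the pLV2 set, which were scaled apart. The line labelled TRIM24-KO has the highest Klf5 and Gbx2 and the lowest Zic2, Prdm14 and Klf2, and Klf5 and Gbx2 differ widely between the replicates labelled DUXBL-KO.

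Lower than in both WT lines were 14 genes. Otx2 stood at 3.60 and 4.64 CPM against 67.4 and 69.1 in line 1 (-4.04 ± 0.17, adjusted p = 4.54e-11) and 18.3 and 21.6 in line 2 (-2.27 ± 0.17, adjusted p = 2.00e-08). Zic2 stood at 0.781 and 0.986 CPM against 6.04 and 6.37 in line 1 (-2.80 ± 0.49, adjusted p = 3.00e-04) and 9.21 and 17.4 in line 2 (-3.88 ± 0.44, adjusted p = 1.73e-06). Both formative genes had larger log2 differences than any of the other 12. Among the naive factors, Prdm14 stood at 10.6 and 14.0 CPM against 26.6 and 28.6 in line 1 (-1.16 ± 0.13) and 26.5 and 26.0 in line 2 (-1.09 ± 0.12). Klf2 stood at 102 and 101 CPM against 226 and 225 in line 1 (-1.15 ± 0.08) and 185 and 169.7 in line 2 (-0.80 ± 0.08). Dppa3, at 4.45 and 5.92 CPM, was lower than the mean of both lines (-1.02 ± 0.24, adjusted p = 0.00266), and Pou3f1, at 14.2 and 11.6 CPM, was higher than it (0.45 ± 0.13, adjusted p = 0.0116). Without untreated replicate 1 of that line neither passed, with Dppa3 at -0.83 and Pou3f1 at 0.30.

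Klf4 (-0.66 ± 0.08 and -0.65 ± 0.08), Esrrb (-0.35 ± 0.06 and -0.34 ± 0.06), Tfcp2l1 (-0.47 ± 0.08 and -0.95 ± 0.08) and Tbx3 (-1.04 ± 0.08 and -0.21 ± 0.08) completed the naive factors lower than in line 1 and in line 2. Nanog stood at 315 and 329 CPM against 435 and 439 in line 1 and 545 and 489.5 in line 2 (-0.44 ± 0.08, adjusted p = 2.63e-04 and -0.68 ± 0.08, adjusted p = 1.22e-06). Tcl1, at 25.3 and 33.9 CPM, was lower than 60.9 and 71.7 in line 1 and 46.9 and 57.4 in line 2 (-1.16 ± 0.14 and -0.81 ± 0.14). Tdh, Fbxo15, Lin28a and Gdf3 made up the rest, with Tdh at -0.67 ± 0.06 and -0.93 ± 0.06. Pou5f1 did not pass against line 1 (-0.05 ± 0.07, adjusted p = 0.586) and was higher than in line 2 (0.38 ± 0.07, adjusted p = 2.16e-04). Naive factors thus went both ways, with 3 higher and 6 lower than in both WT lines.

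Markers of other cell types moved with this line. Of 7 endoderm genes tested, Cubn, Dab2, Gata4, Gata6, Pdgfra and Sox7 were higher than in each WT pLV2 line. The 8 listed genes summed to 44.2 and 44.3 CPM without DOX against 6.01 to 8.63 CPM in the WT pLV2 lines, and none of the 8 was at 0. Cubn, an endocytic receptor of the visceral endoderm, was higher by 4.54 ± 0.29 than in line 1 and by 5.20 ± 0.30 than in line 2. Of 6 trophoblast genes tested, 4 were higher than the mean of both WT lines. Against line 1 alone Elf5 and Hand1 were higher and Eomes lower, and against line 2 alone Hand1, Krt7 and Plet1 were higher. The summed level of the 7 trophoblast genes listed, 37.1 and 39.5 CPM, lay within the range of line 1 (34.7 and 41.0). Of the 8 fibroblast genes tested, Fbn1, Thy1 and Twist1 were higher and Col5a1 lower than in line 1, while against line 2 Twist1 was higher and the other 7 lower (median log2 difference -0.82). That list summed to 43.6 and 50.2 CPM, with Postn, Dcn and Fap at 0. The part of these genes' cells in the levels of the pluripotency genes was not tested. Of the 18 other naive genes, 7 were higher than the mean of both WT lines, among them Zfp57 (0.64 ± 0.07) and Ncoa3 (0.60 ± 0.05), and 7 lower, among them Pecam1 (-1.66 ± 0.11), Lefty1 (-1.26 ± 0.19) and Mycn (-1.15 ± 0.07). Of the 15 other formative or primed genes tested, 5 were higher, among them Grhl2 (1.39 ± 0.13), Etv4 (1.21 ± 0.09) and the DNA methyltransferase gene Dnmt3b (1.01 ± 0.06), and 8 lower, among them Zic5 (-3.79 ± 0.26), Fgf15 (-1.38 ± 0.21) and Sox3 (-1.35 ± 0.27). Of all genes 20.9% were higher and 22.5% lower in that comparison. In TRIM33-KO against the same mean, 4 of the naive genes were higher and 4 lower, as were 4 and 4 of the formative or primed genes, and in line 2 against line 1 the counts were 5 and 11, and 5 and 7. The shares of all genes there were 12.8% higher and 11.1% lower, and 18.9% and 19.3%, so that several of these counts lie near the background.

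In the plain set without DOX, no gene of the set passed between the cells labelled DUXBL-KO and WT in edgeR's quasi-likelihood test, where 0.0388% of all genes did. An unadjusted p under 0.05 was reached by 7 genes (Tfcp2l1, Pou5f1, Tbx3, Nr5a2, Foxd3, Gdf3 and Zic2) and by 8.99% of all genes. DESeq2 called 2 and 1.25% of all genes with an adjusted p. A term for the replicate number in the edgeR fit gave 4 genes, with the share of all genes not given here. The values below come without that term. Tfcp2l1 stood at 1599 and 1292 CPM in the cells labelled DUXBL-KO against 826 and 883 in WT (0.76 ± 0.13, adjusted p = 0.144), and Pou5f1 at 799 and 833 against 696 and 698 (0.23 ± 0.07, adjusted p = 0.44), both without overlap. The replicates labelled DUXBL-KO differed from each other. Klf5 stood at 310.1 and 785 CPM, Gbx2 at 37.2 and 82.2 and Dppa3 at 15.7 and 2.03 in replicates 1 and 2 without DOX. With DOX the same order held, at 285 and 668 CPM for Klf5, 26.4 and 55.2 for Gbx2 and 23.1 and 3.99 for Dppa3. In WT, Dppa3 stood at 37.6 and 22.4 CPM and was above both libraries labelled DUXBL-KO, a difference that did not pass (-1.76 ± 0.97, adjusted p = 0.661).

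**Figure D5:**
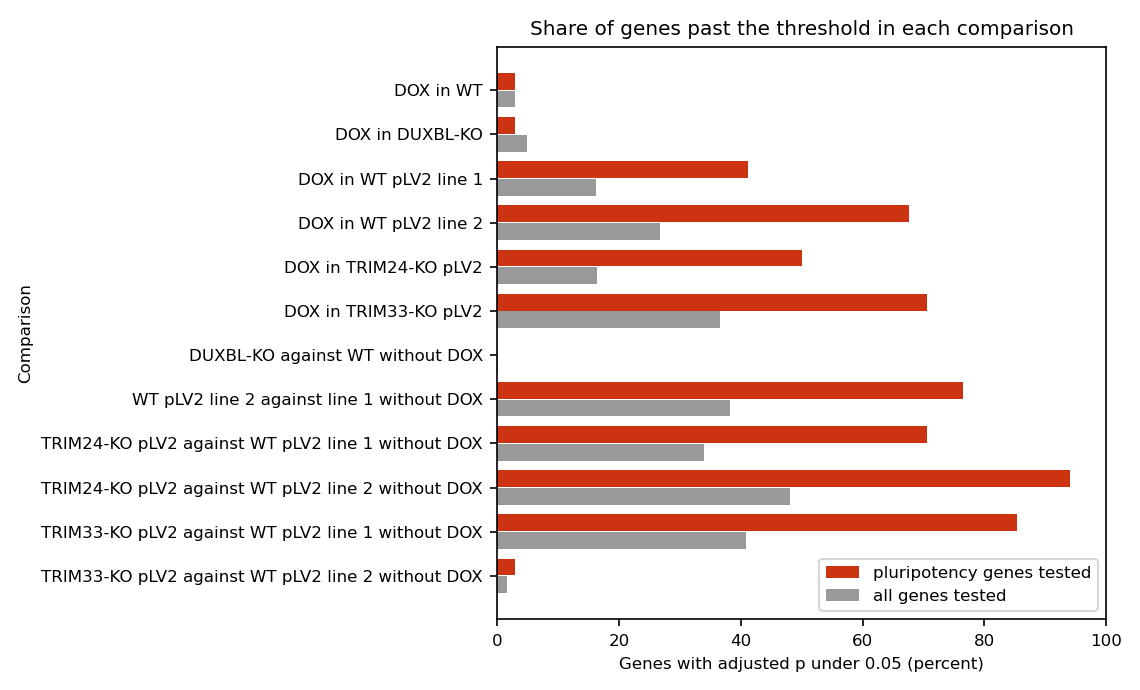
Percent of the 34 pluripotency genes tested (red) and of all genes tested (grey) with an adjusted p under 0.05, for DOX in each line and for lines compared without DOX. In the pLV2 set the red bars run from 41.2% (DOX in line 1) to 94.1% (the line labelled TRIM24-KO against line 2), except TRIM33-KO against line 2 at 2.9%. The pluripotency genes had a median of 2835 counts per library and all genes tested of 146, and a higher count makes a change easier to call.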

How the data were processed

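RNA was sequenced in 24 libraries of 12 groups with strand-marked, ribosomal RNA-depleted libraries and paired reads of 75 bp, per the labels' protocols. The submitters' processing notes name bcl2fastq 2.20.0, cutadapt 1.18, STAR 2.7.6a and the build mm10. How reads were counted, with which annotation release, strand setting and treatment of reads that match several places, is not given in the sources used here. The deposited values are raw counts per gene and per repeat subfamily. Only the 55487 gene IDs were analysed; the 1146 repeat subfamilies took 7.58% to 23.0% of all counts in a library and stayed out of library sizes and tests. IDs were paired with symbols through GENCODE M21, and 260 IDs found no match.

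The plain set (8 libraries) and the pLV2 set (16 libraries) were fitted apart with edgeR 4.0.16 (limma 3.58.1, R 4.3.3): filterByExpr by group, TMM scaling, 1 mean per group and the quasi-likelihood F test. This tested 18060 genes (plain) and 18079 genes (pLV2). P-values were 2-sided and adjusted by Benjamini and Hochberg over all genes tested, and an adjusted p under 0.05 counts as passed. Values after ± are standard errors of log2 fold changes, taken from the fold change and its F statistic. CPM are counts divided by the TMM-scaled library size. Each knockout was set against the average of the WT lines of its set, so the knockouts share those libraries, and against each WT line alone. Residual degrees of freedom numbered 4 (plain) and 8 (pLV2).

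The 35 genes and the lists of other naive, other formative or primed, 2-cell-like, fibroblast, endoderm and trophoblast genes were chosen with earlier results of these data known. Genes given by library are those past the threshold with the largest changes, up to 6 per direction and comparison, and always Pou5f1, Sox2, Nanog, Zfp42, Otx2 and Fgf5; from the other pluripotency lists, up to 3 per direction and comparison are named, except an item that is not reported here. Alternatives were RLE scaling, library sizes with repeats, leaving out CT010467.1, other filters, the compared groups alone, the replicate number as a block, DESeq2 1.42.0, a fold threshold, and each library left out. Same replicate numbers were not taken as pairs, since nothing in the labels ties them. The scripts were tested on simulated data. A library's depth sets a floor of 3 counts below which no fold is given.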

Additional observations from a re-analysis of the deposited data

Results flagged for a closer look

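The response to DOX differed between lines in 4 tests of the difference itself (edgeR quasi-likelihood interaction with Benjamini-Hochberg adjustment over all genes). Fbxo15 rose by more in the line labelled TRIM24-KO than in the mean of both WT pLV2 lines, by 0.60 on the log2 scale (adjusted p = 0.0237). It started there from the lowest untreated mean of all lines, 32.1 CPM against 92.4 in line 1. Its DOX libraries there lay below those of line 1. The call was lost without DOX-treated replicate 2 or untreated replicate 1 of that line, and without any untreated library of either WT line. Prdm14 fell by more in the line labelled TRIM24-KO, a difference of -0.90 (adjusted p = 0.039), though it passed against neither WT line alone. That call was lost without DOX-treated replicate 1 or untreated replicate 2 of that line, without any library of WT pLV2 line 1, and without DOX-treated replicate 2 of line 2.

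Fbxo15 also rose by more in TRIM33-KO than in the same mean, by 0.64 (adjusted p = 0.00947). It was lost without TRIM33-KO DOX-treated replicate 1 or either of its untreated libraries. Klf2 differed by -0.46 (adjusted p = 0.0311), a call lost without those 3 libraries, without any library of line 1 and without replicate 2 of either group of line 2. Both Fbxo15 differences were taken against the same WT libraries.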

How the results depend on the processing

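Values here are the number of the 34 genes past the threshold, and no called result changed direction except where a single WT line replaced the mean of both. Jam2 in the line labelled TRIM24-KO (0.41 against the mean) was -0.35 against line 1, and Foxd3, Nr5a2, Pou5f1 and Utf1 changed sign there without passing. In TRIM33-KO, Foxd3, Jam2 and Sall4 changed sign against line 2 without passing. Fgf4, Jam2, Mybl2, Sall4 and Zfp42 passed with opposite signs against the WT lines in the line labelled TRIM24-KO, and Fbxo15 did in TRIM33-KO. A threshold of at least 1 in log2 fold change left 2 genes with DOX in line 1, 3 in line 2, 2 in the line labelled TRIM24-KO and 5 in TRIM33-KO. It left 6 between the line labelled TRIM24-KO and the WT mean, 1 between TRIM33-KO and that mean, 7 between line 2 and line 1, and 0 in the TRIM24-KO and TRIM33-KO interactions. Fitting only the compared groups gave 0 with DOX in WT, 14 in line 2 and 0 in the TRIM24-KO interaction. Without a filter on low counts, 2 passed with DOX in the cells labelled DUXBL-KO and 6 between those cells and WT. The same setting gave 5 in the TRIM24-KO, 9 in the TRIM33-KO and 3 in the WT line interaction. The shares of all genes in these unfiltered fits are not given here, so these counts have no background beside them. DESeq2 called 2 genes between the cells labelled DUXBL-KO and WT, 5 and 4 in the TRIM24-KO and TRIM33-KO interactions, and 2 in the line interaction. Of all genes it called 53 higher and 124 lower, 71 and 28, 173 and 23, and 95 and 17 in that order. RLE scaling gave 1 in each of the TRIM24-KO and TRIM33-KO interactions. With line 1 alone as reference these interactions gave 1 and 7, and with line 2 alone 0 and 0. TRIM33-KO against line 2 alone gave 1. The cause of these changes was not tested, except that fitting only the compared groups leaves fewer samples. Scaling moved the median log2 fold change of all genes by at most 0.072.

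Leaving out each library in turn gave 0 to 1 genes with DOX in WT, 0 to 1 in the cells labelled DUXBL-KO, 5 to 10 in line 1, 16 to 20 in line 2, 10 to 16 in the line labelled TRIM24-KO and 21 in each TRIM33-KO fit. Without DOX the range was 0 in each fit for the cells labelled DUXBL-KO against WT, 22 to 28 for the line labelled TRIM24-KO, 12 to 21 for TRIM33-KO and 22 to 26 for line 2 against line 1. The interactions gave 0 for DUXBL-KO, 0 to 2 for TRIM24-KO, 0 to 5 for TRIM33-KO and 0 to 1 for the WT lines. Genes with the same sign against both WT lines numbered 15 to 17 in the line labelled TRIM24-KO and 0 to 1 in TRIM33-KO.

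The replicate block, a term for the replicate number, gave 2 genes with DOX in WT and 3 in the cells labelled DUXBL-KO. It gave 4 between those cells and WT without DOX, and 1 in the WT line interaction. The shares of all genes with the block are not given here. In the other comparisons the block gave between 0 and 27 genes, within 1.5 times the count without it. Same-numbered libraries of different groups had correlated deviations in the plain set (r from 0.255 to 0.549) and hardly in the pLV2 set (-0.047 to 0.195), with only 2 numbers to compare, so the block describes these libraries and not the design. Depth limited Fgf5, which had too few counts to test, and Zic2 in the line labelled TRIM24-KO, whose error was the widest of the genes lower than the WT mean there.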
